A study of Homo sapiens with 8 samples.

Results

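The inhibitor of DNA binding (ID) genes and the bone morphogenetic protein (BMP) genes that act upstream of them were followed in BCPAP cells, a line from a papillary thyroid carcinoma, after knockdown of *EPB41L4A*. The 10 genes considered were *ID1*, *ID2*, *ID3*, *ID4*, *BMP2*, *BMP4*, *BMPR1A*, *BMPR2*, *SMAD6* and *SMAD7*. A probe set was taken for a gene if the platform annotation gave it that gene symbol and no other, and among several probe sets the one was chosen by its highest mean log2 value over the 8 arrays. Of the 33616 genes named in this way, 9 were among the 10 considered, and 8 of these passed the filter on low values that left 22465 genes for testing. *BMPR1A* was not analysed here, and *ID4* was measured but not tested. Only *SMAD7* had 2 probe sets, with means over the 8 arrays of 7.87 for the one used and 5.72 for the other.

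The si*EPB41L4A* group (n = 4) received an siRNA pool against *EPB41L4A*, and the si*NS* group (n = 4) a non-targeting pool, both with the same transfection reagent. All cells were untreated otherwise and were harvested after 72 h. Total RNA was hybridized to 1 Clariom D Human array per culture, and the labels describe the replicates as biological, made at separate times. With 1 pool per group, loss of *EPB41L4A* and any effect of the pool on other transcripts cannot be told apart, and in these bulk samples neither can fewer cells of a type and less RNA per cell.

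ID proteins carry a helix-loop-helix domain but no basic region. They bind the E proteins and related basic helix-loop-helix factors and keep them from DNA, and are known for holding back differentiation and cell-cycle exit. BMP ligands bind pairs of type I and type II receptors, the receptors phosphorylate SMAD1, SMAD5 and SMAD9, and these enter the nucleus with SMAD4. *ID1*, *ID2* and *ID3* are among the best known direct targets of this route, and *SMAD6* and *SMAD7* encode the inhibitory SMADs that close the feedback loop.

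The promoters of *ID1*, *ID2* and *ID3* are shown because these are the tested *ID* genes, of which *ID1* was called and the others were not. Each runs from 250 bases before the RefSeq start site to 50 after it (GRCh38.p14), at chr20:31605039-31605338 on the plus strand, chr2:8681806-8682105 on the plus strand and chr1:23559452-23559751 on the minus strand. Capitals mark matches, on either strand, to CAGAC (a SMAD-binding element), GGCGCC (a GC-rich element bound by BMP-activated SMADs), CANNTG (the E-box), CCAAT and TATAAA.
ID1: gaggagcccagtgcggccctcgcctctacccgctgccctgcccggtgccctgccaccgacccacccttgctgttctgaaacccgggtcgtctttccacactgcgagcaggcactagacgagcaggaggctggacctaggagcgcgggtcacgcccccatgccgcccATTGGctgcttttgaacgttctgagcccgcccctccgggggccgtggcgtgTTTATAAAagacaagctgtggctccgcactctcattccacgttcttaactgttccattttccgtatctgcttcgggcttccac
ID2: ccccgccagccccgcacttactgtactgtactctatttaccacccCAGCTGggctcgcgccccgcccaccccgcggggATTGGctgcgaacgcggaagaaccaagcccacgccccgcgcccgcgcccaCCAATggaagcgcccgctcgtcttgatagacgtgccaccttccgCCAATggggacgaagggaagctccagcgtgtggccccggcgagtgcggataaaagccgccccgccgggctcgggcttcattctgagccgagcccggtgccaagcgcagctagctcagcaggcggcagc
ID3: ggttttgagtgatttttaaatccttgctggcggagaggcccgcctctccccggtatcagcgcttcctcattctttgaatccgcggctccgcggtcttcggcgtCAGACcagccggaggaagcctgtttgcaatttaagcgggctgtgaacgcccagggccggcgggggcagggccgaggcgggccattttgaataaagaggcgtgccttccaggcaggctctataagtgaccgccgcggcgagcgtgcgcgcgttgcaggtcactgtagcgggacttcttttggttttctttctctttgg
Bases outside the stretches shown were not searched, so a motif absent here may lie farther from the start. The *ID1* stretch held CCAAT (on the opposite strand, as ATTGG) at position -84. It held TATAAA on both strands at -33 and -31, where the matches overlap, and none of the first 3 motifs. The *ID2* promoter had 1 E-box at -205 and CCAAT on either strand at -172, -122 and -78. The *ID3* promoter had 1 CAGAC at -147 and no other match. Among 35116 promoters of the same length, 45.3% held CAGAC, 19.2% GGCGCC, 68.7% CANNTG, 34.6% CCAAT and 11.5% TATAAA. Of the 10 genes, 9 had a promoter in this table.

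Array medians were 3.72 to 3.84, pairs of arrays correlated at 0.962 to 0.977 over all probe sets, and the 612 negative control probe sets averaged 4.05 to 4.29 by array, with 95th percentiles of 5.97 to 6.43. Some values exceeded 16, more than a 16-bit scanner signal can give on the log2 scale, so a log2 change of 1 need not be a doubling of RNA. *EPB41L4A*, the targeted gene, had log2 values of 5.55, 5.94, 6.72 and 7.09 on the si*EPB41L4A* arrays, against 9.65, 9.22, 9.81 and 9.44 on the si*NS* arrays. The groups did not overlap, and the change was -3.20 (SE 0.32, limma adjusted p = 0.000491). Of 13 thyroid follicular markers, the transcription factors *PAX8*, *NKX2-1*, *FOXE1* and *HHEX* lay above the 95th percentile of the negative controls on all 8 arrays. The 9 others, *TG*, *TSHR*, *SLC5A5*, *SLC26A4*, *DIO1*, *DIO2*, *DUOX1*, *DUOX2* and *DUOXA2*, lay above it on none. None of the 2 C cell, 5 endothelial or 4 leukocyte markers lay above it on any array. *KRT8* and *KRT18* lay above it on all 8 arrays and *CDH1* on none. *KRT19* did so on 2 si*EPB41L4A* and 0 si*NS* arrays, and *EPCAM* on 1 and 4. Of 6 fibroblast markers *COL1A1* and *LUM* did so on all 8 and *DCN*, *PDGFRA* and *PDGFRB* on none. *COL1A2* did so on 4 si*EPB41L4A* and 3 si*NS* arrays. *EPCAM* was the 1 marker called, with a change of -2.43 (adjusted p = 0.00683). The summed level of the 5 epithelial markers was 14.13 to 15.64 in si*EPB41L4A* cells and 15.30 to 16.02 in si*NS* cells (log2), and its part in the results below was not tested.

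Over all 66831 tested probe sets, 2.61% passed a limma adjusted p of 0.05. Per gene, 5.51% of the 22465 tested were called, 2.55% higher and 2.96% lower in si*EPB41L4A* cells. Of the 8 tested genes considered here, 2 were called, *ID1* lower and *BMP4* higher. *BMP4* and *SMAD6* passed the filter only through the group where they were higher, so these counts carry no support from them. The groups did not overlap for those same 2, against 14.4% of all genes, and 6 had an unadjusted limma p under 0.05, against 22.2% of all genes. The median change of the 8 was -1.07, beside -0.06 over all genes. *ID1* was known to be strongly lower when the list was drawn up, so these counts describe the list and are not independent evidence on it.

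**Figure D1:**
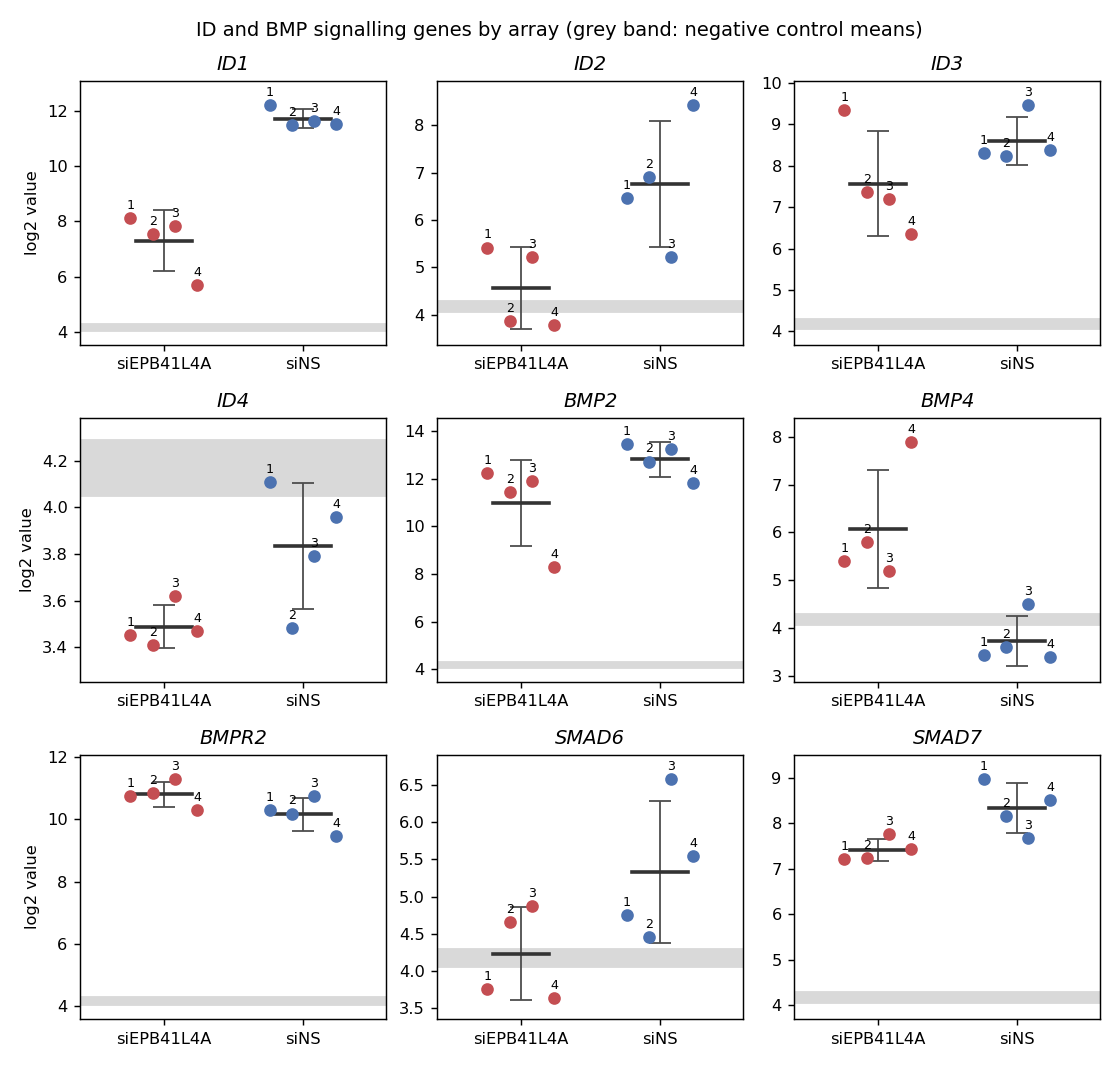
Log2 value of each of the 9 measured genes on each array (points, numbered by replicate), with si*EPB41L4A* left of si*NS*, group means (horizontal lines), SDs (bars, n = 4) and the range of the negative control means (grey band, 4.05 to 4.29). The groups are apart for *ID1* and *BMP4*, *ID4* lies within or under the band on every array. Vertical axes differ between panels.

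*ID1* fell the most of the 8. Its log2 values were 8.13, 7.53, 7.84 and 5.70 in si*EPB41L4A* cells, against 12.22, 11.47, 11.64 and 11.51 in si*NS* cells. The 4 si*NS* values lay within 1 log2 unit of each other, whereas replicate 4 of si*EPB41L4A* stood below the other 3 of its group. That value, 5.70, lay under the 95th percentile of the negative controls on its array, 6.06, and the other 3 lay above theirs. The means were 7.30 ± 1.10 and 11.71 ± 0.35 (SD, n = 4 each), a change of -4.41 (SE 0.44, 95% interval -5.37 to -3.45, limma adjusted p = 0.000491). By p-value this was the gene of rank 32 among the 22465 tested, directly after *EPB41L4A* itself at rank 31. An exact two-sided permutation test gave p = 0.0286, the smallest that 4 arrays against 4 can give. With each array left out in turn the change lay between -4.69 and -3.88, and it was called each time.

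*ID2*, whose product like that of *ID1* sequesters E proteins, was dim on these arrays. It read 5.42, 3.87, 5.22 and 3.78 in si*EPB41L4A* cells, against 6.46, 6.90, 5.22 and 8.44 in si*NS* cells. No si*EPB41L4A* array and 3 of 4 si*NS* arrays exceeded the 95th percentile of the negative controls, and replicate 3 was equal in both groups to the second decimal. The change of -2.19 (SE 0.59, 95% interval -3.46 to -0.91) had an unadjusted p of 0.00282 and a limma adjusted p of 0.078, so it did not pass. Without si*NS* replicate 3 it did, at an adjusted p of 0.0282, as it did when p-values were adjusted over 1 probe set per gene (0.0464).

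*ID3* gave 9.35, 7.37, 7.20 and 6.36 in si*EPB41L4A* cells, against 8.32, 8.23, 9.48 and 8.38 in si*NS* cells. The highest si*EPB41L4A* value, in replicate 1, exceeded 3 of the 4 si*NS* values. The change was -1.03 (SE 0.52, 95% interval -2.17 to 0.11, limma adjusted p = 0.417). Without si*EPB41L4A* replicate 1 it was -1.62 and passed, with an adjusted p of 0.0412. *ID4* read 3.45, 3.41, 3.62 and 3.47 in si*EPB41L4A* cells, against 4.11, 3.48, 3.79 and 3.96 in si*NS* cells. Neither group mean was above the negative control mean, so no change is drawn from it. The antisense transcript *ID2-AS1* did not pass the filter either.

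The 4 *ID* genes were compared with each other through the difference between their changes, in 6 pairs by exact two-sided permutation tests over the arrays. The value of *ID1* minus that of *ID3* was -1.22, 0.15, 0.64 and -0.67 in si*EPB41L4A* cells, against 3.89, 3.25, 2.15 and 3.13 in si*NS* cells. The groups did not overlap, and the difference between the changes was -3.38 (permutation p = 0.0286, adjusted over the 6 pairs 0.0857). For *ID1* and *ID2* the difference was -2.22 (permutation p = 0.0571, adjusted 0.114), and for *ID2* and *ID3* it was -1.15 (permutation p = 0.314, adjusted 0.371). No pair passed after adjustment in this test, and with 4 arrays per group a pair at the smallest possible p passes only if at least 4 pairs reach it. With limma on the same differences, a test added after these values were seen, the adjusted p was 0.0111 for *ID1* and *ID2*, 0.000216 for *ID1* and *ID3* and 0.161 for *ID2* and *ID3*, so the call depends on the test. The 3 pairs with *ID4* compare a gene at background, with differences of -4.06 for *ID1*, -1.84 for *ID2* and -0.69 for *ID3*.

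**Figure D2:**
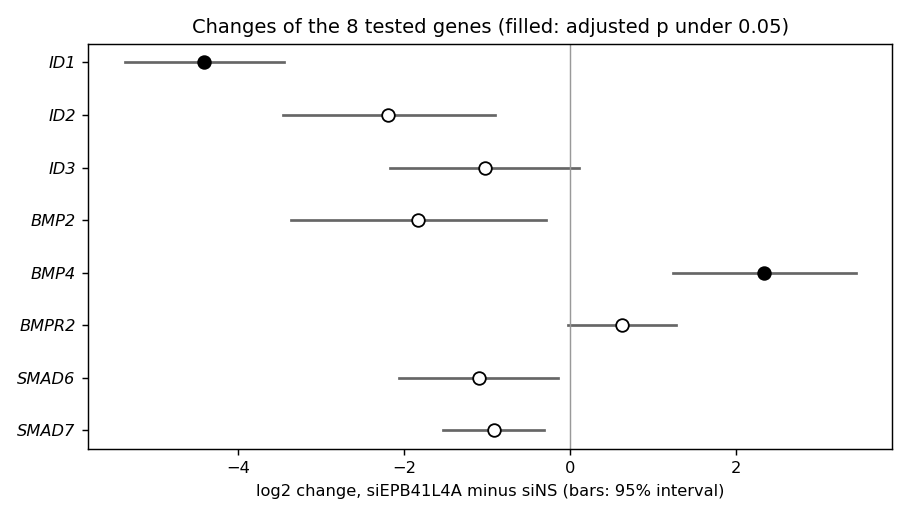
Log2 change, si*EPB41L4A* minus si*NS*, of the 8 tested genes (points) with 95% intervals (bars), filled where the limma adjusted p was under 0.05. *ID1* at -4.41 and *BMP4* at 2.34 are filled, and the intervals of *ID3* and *BMPR2* cross 0.

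The ligands *BMP4* and *BMP2* had changes of opposite sign, of which only the first passed. *BMP4*, a secreted ligand best known from mesoderm and epithelial development, rose. Its log2 values were 5.40, 5.80, 5.19 and 7.90 in si*EPB41L4A* cells, against 3.43, 3.59, 4.50 and 3.39 in si*NS* cells. The groups did not overlap, and replicate 4 was the highest of the si*EPB41L4A* arrays. Only that array exceeded the 95th percentile of the negative controls, and no si*NS* array did. The means were 6.07 ± 1.25 and 3.73 ± 0.52 (SD, n = 4 each), a measured change of 2.34 (SE 0.51, 95% interval 1.24 to 3.45, limma adjusted p = 0.0318). *BMP4* lay above the array median on 4 si*EPB41L4A* arrays but 1 si*NS* array, so it passed the filter only through the group where it was higher, and with no filter the adjusted p was 0.0533. In si*NS* cells the mean lay under that of the negative controls. With the control mean put in wherever *BMP4* read lower, the difference of the means was at least 1.75, or at least 1.14 without si*EPB41L4A* replicate 4. With each array left out in turn the change ran from 1.73 to 2.64. *BMP4* did not pass when si*EPB41L4A* replicate 2 (adjusted p = 0.0745) or si*NS* replicate 1 (0.0908), 2 (0.0882) or 4 (0.0714) was left out.

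*BMP2*, a ligand of the same subgroup, was bright. It read 12.25, 11.42, 11.91 and 8.31 in si*EPB41L4A* cells, against 13.45, 12.72, 13.25 and 11.80 in si*NS* cells. Replicate 4 was the lowest in both groups, and 2 of the si*EPB41L4A* values exceeded the lowest si*NS* value. The change was -1.83 (SE 0.71, 95% interval -3.37 to -0.29, limma adjusted p = 0.249), which did not pass. *BMP3*, *BMP5*, *GDF2* and *GDF6* were the other ligands tested, with changes of -0.41 to 0.28, none called. *GDF6* exceeded the 95th percentile of the negative controls on 1 si*NS* array and the others on no array, so little can be read from them. The remaining 8 of 14 ligands did not pass the filter.

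*BMPR2*, the type II receptor that binds BMP ligands, read 10.76, 10.86, 11.30 and 10.29 in si*EPB41L4A* cells, against 10.29, 10.19, 10.74 and 9.46 in si*NS* cells. Within each group replicate 3 was highest and replicate 4 lowest. The change was 0.63 (SE 0.30, 95% interval -0.02 to 1.28, limma adjusted p = 0.38), or 0.39 without si*NS* replicate 4. None of the 6 BMP receptor genes measured of 7 was called, and their changes ran from -0.60 for *ACVR2A*, an activin and BMP type II receptor, to 0.63 for *BMPR2*. *ACVR1*, a type I receptor, had the smallest p of them, with a change of -0.52 (limma adjusted p = 0.319). *BMPR1B*, the type I receptor paralogous to *BMPR1A*, averaged 8.21 ± 0.40 in si*EPB41L4A* cells and 7.95 ± 0.59 in si*NS* cells (SD, n = 4 each). The pseudogene *BMPR1APS1* had a change of 0.86 and *BMPR1AP2* of -0.08 (adjusted p = 0.309 and 0.934), and neither stands in for *BMPR1A*, with which they may share probe sequence.

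*SMAD7*, an inhibitory SMAD that blocks both BMP and TGF-beta receptors, read 7.22, 7.24, 7.76 and 7.44 in si*EPB41L4A* cells, against 8.98, 8.17, 7.68 and 8.51 in si*NS* cells. Only si*EPB41L4A* replicate 3 exceeded a si*NS* value, that of replicate 3. The change was -0.92 (SE 0.28, 95% interval -1.53 to -0.31) with an unadjusted p of 0.00642 and a limma adjusted p of 0.122. The second, dimmer probe set of *SMAD7* had a change of -0.03 (adjusted p = 0.976), so the 2 probe sets did not move alike. *SMAD6*, the inhibitory SMAD with preference for the BMP arm, read 3.75, 4.66, 4.87 and 3.63 in si*EPB41L4A* cells, against 4.75, 4.45, 6.59 and 5.54 in si*NS* cells. Of these 8 values 1, si*NS* replicate 3, exceeded the 95th percentile of the negative controls, and the change of -1.10 (SE 0.44) had a limma adjusted p of 0.27. Without that array the change was -0.69.

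In the wider pathway, 126 genes were listed by role, 119 were measured and 90 tested. Of the 82 tested besides the genes above, 3 were called higher and 4 lower, or 3.66% and 4.88%, beside 2.55% and 2.96% of all genes. Their median change was -0.09, beside -0.06 over all genes. Each role had 0 or 1 called gene, of 2 to 18 tested, which at these numbers is not read as a property of the role. The 3 higher were *TGFBR2*, *SMAD5* and *CHRDL1*, and the 4 lower *BHLHE41*, *CDKN1A*, *TGFBI* and *SMURF1*. Genes named in the following paragraphs that were not called, other than those with the smallest p of a list without a call, were picked after their values were seen.

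Among the 8 SMAD genes, *SMAD5*, a SMAD that BMP receptors phosphorylate, rose. It read 14.93, 15.02, 14.90 and 15.46 in si*EPB41L4A* cells, against 13.61, 13.51, 13.88 and 13.34 in si*NS* cells. The spread within groups was small beside the gap, and the change was 1.50 (SE 0.22, limma adjusted p = 0.00412). *SMAD4*, the partner shared by both arms, changed by 0.98 (adjusted p = 0.0917) with no overlap between groups, and *SMAD1* by 0.38 (adjusted p = 0.738). *SMAD9* read at or near the negative controls. *SMAD3*, of the TGF-beta arm, had a change of -0.81 (adjusted p = 0.341), and *SMAD2* of 0.04 (adjusted p = 0.969). Of the 10 SMAD regulators tested of 11, 1 was called. *SMURF1*, a ubiquitin ligase that marks BMP SMADs and receptors for degradation, read 11.36, 10.56, 10.73 and 10.97 in si*EPB41L4A* cells, against 11.98, 11.83, 12.08 and 11.97 in si*NS* cells, a change of -1.06 (SE 0.22, adjusted p = 0.0283). This call was lost in 7 of the 8 fits that left out 1 array, with adjusted p of 0.0545 to 0.0973, and kept without si*EPB41L4A* replicate 1. *PPM1A*, a SMAD phosphatase, and *STUB1*, a ubiquitin ligase, had changes of 1.07 and -1.0 (adjusted p = 0.0522 and 0.0677). Besides the fits that left out an array, *PPM1A* passed in 8 and *STUB1* in 4 of 10 other settings.

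Of 12 antagonist genes tested of 18, 1 was called. *CHRDL1*, a secreted chordin-like protein that binds BMP4, read 16.99, 16.57, 16.78 and 16.16 in si*EPB41L4A* cells, against 15.35, 15.26, 15.61 and 14.31 in si*NS* cells. All of these values are high on the scale, the groups did not overlap, and the change was 1.49 (SE 0.30, limma adjusted p = 0.0208). The call was lost without si*EPB41L4A* replicate 1 (0.0526), 2 (0.0623) or 3 (0.0643), or without si*NS* replicate 2 (0.0521). *NOG*, which encodes the antagonist noggin, read 4.68, 5.55, 5.75 and 7.59 in si*EPB41L4A* cells, against 4.35, 4.59, 4.56 and 5.11 in si*NS* cells (change 1.24, adjusted p = 0.253). As with *BMP4*, replicate 4 was the highest si*EPB41L4A* array, and without it the change was 0.67. No other array of either group exceeded the 95th percentile of the negative controls for *NOG*. *TWSG1* had a change of 0.79 (adjusted p = 0.13) and *FSTL3*, a follistatin-like activin binder, of -0.91 (adjusted p = 0.0726). No co-receptor was called among 5 tested, and *TGFBR3*, betaglycan, had the smallest p there, with a change of 0.60 (limma adjusted p = 0.493).

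Besides *ID1*, none of the other 17 BMP target genes tested of 26 was called, and the median of the list was -0.61. The list holds *ID2*, *ID3*, *SMAD6* and *SMAD7*, so this median is not separate from the values above. *RUNX2*, an osteoblast factor, had a change of -1.27 and *HES1*, a transcriptional repressor, of -1.23 (adjusted p = 0.079 and 0.0716). *HEY1* and *TBX3* had changes of -0.70 and -0.60 (adjusted p = 0.248 and 0.318). *HEY1* exceeded the 95th percentile of the negative controls on only 1 array of each group. *SNAI2*, a repressor of epithelial genes, went the other way at 1.84 (adjusted p = 0.171).

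**Figure D3:**
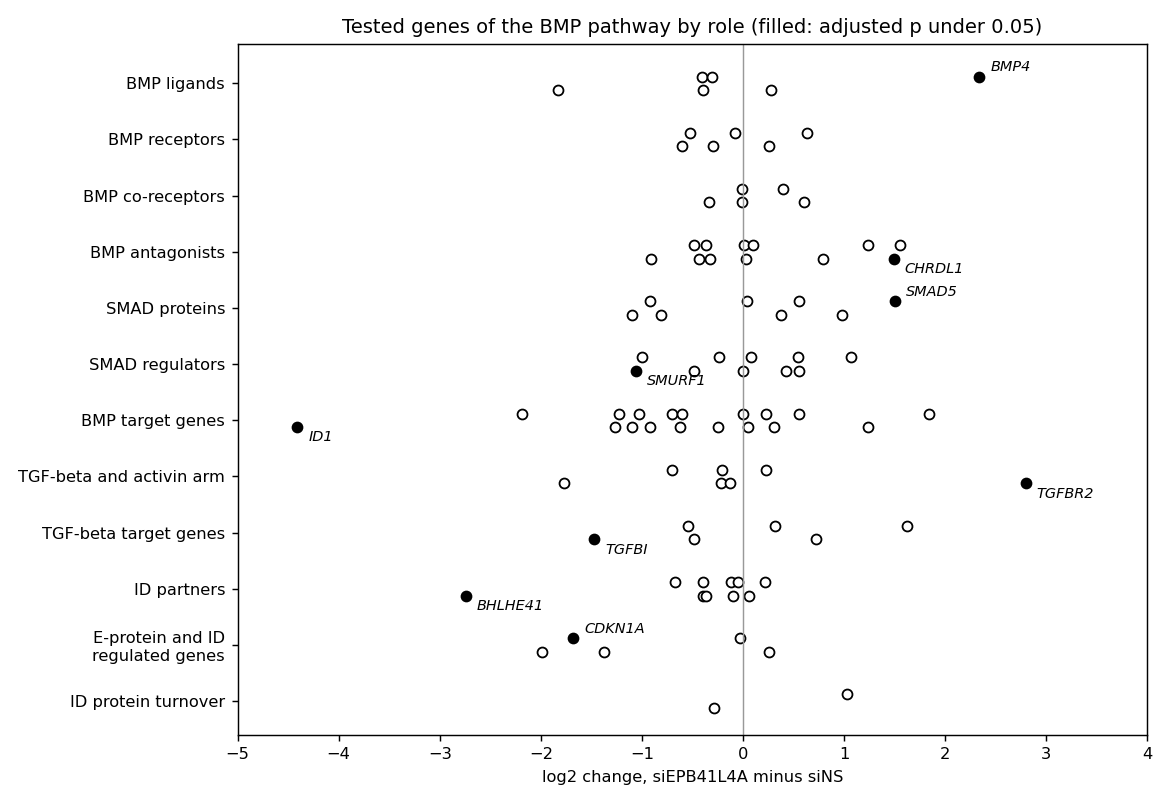
Log2 change, si*EPB41L4A* minus si*NS*, of each tested pathway gene (circles) by role, filled and named where the limma adjusted p was under 0.05. Genes on 2 lists are drawn in both, and the filled genes run from *ID1* at -4.41 to *TGFBR2* at 2.80.

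The sister branch of the family held the largest rise in the pathway. *TGFBR2*, the type II TGF-beta receptor, read 13.96, 13.90, 13.69 and 14.77 in si*EPB41L4A* cells, against 11.78, 11.02, 11.60 and 10.72 in si*NS* cells. The change was 2.80 (SE 0.30, limma adjusted p = 0.000603), and the call held with each array left out. Of the 7 genes tested in the TGF-beta and activin arm, it was the only one called. *INHBA*, the activin A subunit, read 15.39, 15.80, 16.29 and 13.39 in si*EPB41L4A* cells, against 17.02, 16.85, 17.39 and 16.68 in si*NS* cells, a change of -1.77 (adjusted p = 0.0923), or -1.16 without si*EPB41L4A* replicate 4. Of 6 TGF-beta target genes tested, *TGFBI*, a secreted matrix protein named for its induction by TGF-beta, was called, with means of 16.99 ± 0.27 in si*EPB41L4A* cells and 18.46 ± 0.31 in si*NS* cells (SD, n = 4 each). Its change was -1.47 (adjusted p = 0.00639), at the top of the scale. *CCN2*, another such target, had a change of 1.62 (adjusted p = 0.217).

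The E proteins that ID proteins bind were not called. *TCF3*, *TCF4* and *TCF12* had changes of -0.05, -0.67 and -0.12 (limma adjusted p = 0.962, 0.389 and 0.893). With the probe sets of each gene averaged, the change of *TCF4* was -0.14 (limma adjusted p = 0.784), so its value depends on the probe set. Of 10 basic helix-loop-helix partner genes tested of 19, only *BHLHE41* was called, a repressor of the circadian clock. It read 11.50, 11.80, 11.28 and 9.65 in si*EPB41L4A* cells, against 14.50, 13.55, 13.43 and 13.72 in si*NS* cells. Replicate 4 was again the lowest of its group, and the change was -2.74 (SE 0.42, adjusted p = 0.00513). *CDKN1A*, the p21 cell-cycle inhibitor, was the 1 gene called of 5 that E proteins activate or ID proteins hold down, with 10.45, 9.95, 10.35 and 9.12 in si*EPB41L4A* cells, against 11.47, 11.61, 12.68 and 10.81 in si*NS* cells. The groups did not overlap, and the change was -1.68 (SE 0.39, adjusted p = 0.0437). It lost the call in 6 of the 8 fits without 1 array (adjusted p of 0.0706 to 0.114). *THBS1*, thrombospondin, had a change of -1.99 and *CDKN2B*, the p15 inhibitor, of -1.38 (adjusted p = 0.0526 and 0.171). *THBS1* passed in 7 of 10 other settings. *USP1*, a deubiquitinase that stabilises ID proteins, had a change of 1.03 (limma adjusted p = 0.242), or 0.64 without si*EPB41L4A* replicate 4.

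The genes nearest to *ID1* were found by the root mean square difference of log2 values over the 8 arrays, each gene centred on its mean, among 22464 others. They were *MAP2*, a microtubule-associated protein, at 0.42, *S1PR1*, a sphingosine-1-phosphate receptor, at 0.47, *NRG1*, an ERBB ligand, at 0.64, *SNTG1* at 0.65 and *ACTBL2* at 0.74. *MAP2* read 5.87, 5.74, 6.48 and 4.33 in si*EPB41L4A* cells, against 10.73, 10.21, 10.57 and 9.28 in si*NS* cells. It was lowest in replicate 4 of si*EPB41L4A*, as *ID1* was, and also in replicate 4 of si*NS*, where *ID1* was not. For *BMP4* the nearest were *SDC3*, a syndecan, at 0.41, *SFXN1* at 0.53 and *MARCHF4* at 0.55, with changes of 1.94, 2.29 and 1.81, the last not called (adjusted p = 0.159). The measure takes in the difference between the groups, so a small value does not by itself show a like replicate pattern. *NRG1* read 10.66, 10.06, 10.04 and 10.09 in si*EPB41L4A* cells, so replicate 4 was not its lowest. In si*NS* cells *SNTG1* and *ACTBL2* were lowest in replicate 1, at 10.11 and 13.35, where *ID1* was highest.

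**Figure D4:**
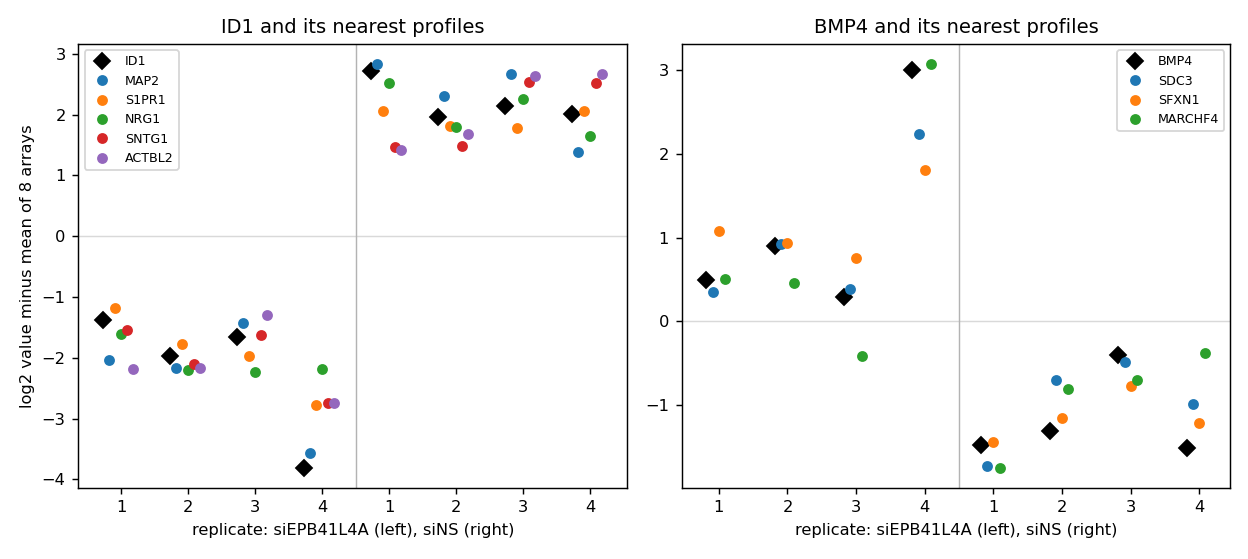
Log2 value minus the mean of the 8 arrays for *ID1* and its 5 nearest genes (left) and *BMP4* and its 3 nearest (right), with si*EPB41L4A* replicates 1 to 4 left of si*NS* replicates 1 to 4. In the left panel every si*EPB41L4A* point lies below 0 and every si*NS* point above it, and in the right panel *BMP4* is highest in si*EPB41L4A* replicate 4.

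Within its group, replicate 4 of si*EPB41L4A* lay farthest from the mean for 4 of the 9 genes, *ID1*, *BMP2*, *BMP4* and *BMPR2*, and replicate 3 of si*NS* for 4 as well. The other arrays did so for 0 to 3 genes. The deviations of si*EPB41L4A* replicate 4 were -1.60, -2.66, 1.83 and -0.51. Over the tested probe sets its root mean square deviation was 0.421, against 0.339 to 0.414 for the other 7 arrays. The 0.414 was that of si*NS* replicate 4, so replicate 4 deviated most in both groups. The *EPB41L4A* value of si*EPB41L4A* replicate 4, 7.09, was the highest of its group. Without that array the change of *ID1* was -3.88 (limma adjusted p = 0.000141), that of *BMP4* 1.73 (adjusted p = 0.0173) and that of *BMP2* -0.95 (adjusted p = 0.285).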

How the data were processed

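RNA of 8 BCPAP cultures was hybridized to Clariom D Human arrays. Per the labels, signals went through RMA in Affymetrix Expression Console (version and genome build not given in the sources used here), and the authors deposited log2 values, 1 for each probe set on each array. These were taken without further correction. Precision is limited by the number of arrays.

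Besides 2995 control rows the table holds 135750 probe sets. Testing was restricted to the 66831 that exceeded the median (percentile 50) of their array on 4 or more of the 8. Platform annotation gave 36176 probe sets 1 gene symbol and 1119 several, and the rest none. The limma package (version 3.58.1, R 4.3.3) fitted the difference si*EPB41L4A* minus si*NS* without a block, using lmFit and eBayes, and p-values were adjusted by Benjamini-Hochberg across every probe set tested. The fit was first tested on simulated data. Exact two-sided permutation tests over arrays (70 arrangements) were used for the differences between *ID* genes.

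The genes considered, the pathway and marker lists and the tests were chosen with earlier results of these data known. Besides the 10 genes, the text names called pathway genes, the smallest p of each list without a call, and profiles nearest to called genes. Other pathway genes, and the bound for *BMP4*, were chosen after their values were seen. Promoters came from RefSeq (GRCh38.p14). Alternatives were other filters, normalizations, variance priors and tests, array weights, a stricter threshold, averaging the probe sets of a gene, a replicate block and leaving out each array. For pathway genes they were added after seeing the data, as were limma on the *ID* differences and adjustment over 1 probe set per gene. The treatment text of some labels names another siRNA target, whereas titles and source names give the groups used here.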

Additional observations from a re-analysis of the deposited data

Results flagged for a closer look

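*ID3* in si*NS* replicate 3 had a log2 value of 9.48, far from the other si*NS* arrays, which read 8.32, 8.23 and 8.38. *THBS1*, the thrombospondin gene, read 15.46 in si*NS* replicate 4, far from 13.99, 13.74 and 13.75 on the other si*NS* arrays. These were 2 of the 84 groups of 4 arrays checked by Dixon's criterion, which by chance marks about 1 in 20.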

How the results depend on the processing

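Over 52 results and 883 alternative values, 769 kept their side of the threshold or, for counts, stayed within 1.5 times. Among these, *SMAD2*, which was not called, took either sign (-0.12 to 0.15 with an array left out). None changed sign past the threshold, 31 lost their call, 54 gained one and 29 counts moved by more than 1.5 times. With a moderated fit, *ID1*, *EPB41L4A*, *SMAD5*, *TGFBR2*, *TGFBI* and *BHLHE41* were called under every alternative tried. Under Student's t-test without moderation, 312 probe sets were called beside 1747, with 0 of the 10 genes, 2 pathway genes higher and 0 lower, and *ID1* at -4.41 (adjusted p = 0.0513) and *BMP4* at 2.34 (adjusted p = 0.235) lost their calls. At an unadjusted p under 0.0001 and a fold over 2, 589 probe sets, 1 of the 10 genes, 2 pathway genes higher and 3 lower passed. With no filter *BMP4* at 2.34 had an adjusted p of 0.0533, which left 1 of the 10 genes called. The filter at the 75th percentile called 8 pathway genes lower, beside 5. Averaging the probe sets of each gene, which also adjusts over genes, called 10. Adjusting over 1 probe set per gene without averaging, added after seeing the data, called 11, and *ID2* at -2.19 passed (adjusted p = 0.0464).

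The arrays were not treated as pairs by replicate number, since no label ties a number to a time. The deviations from group means of same-numbered arrays correlated at 0.228, 0.0746, 0.201 and 0.385, all positive. Whether same-numbered arrays were made together was not tested, and the main fit leaves out any such shared effect. With the replicate block, 3176 probe sets were called, with 10 pathway genes higher and 13 lower, and *BMP2* at -1.83 passed (adjusted p = 0.0231). With limma in place of the permutation test, the differences between the changes of *ID1* and *ID2* (-2.22), *ID3* (-3.38) and *ID4* (-4.06) had adjusted p of 0.035, 0.00268 and 0.000902 with the block. Without it they had 0.0111, 0.000216 and 2.71e-05, and that of *ID2* and *ID4* (-1.84) had 0.0296, so the gains came with the test and not with the block. The block ended no call among *EPB41L4A*, *ID1*, *BMP4* and the other called pathway genes.

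Leaving out 1 array gave 797 to 1628 probe sets, 1 to 3 of the 10 genes, 2 to 5 pathway genes higher and 3 to 6 lower. The change of *ID2* ran from -2.70 to -1.63, that of *ID3* from -1.62 to -0.63 and that of *BMP4* from 1.73 to 2.64. *ID4* did not pass the filter, so it has no value in these fits. Causes of these shifts were not tested. Values at the level of the negative controls, as for *ID4*, *SMAD6* and *BMP4* in si*NS* cells, limit what can be read from them.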
